A study of Mus musculus with 2 samples.

Results

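This report describes the p53 peaks found around 8 mouse genes that act in p53-driven cell death: Bbc3, Pmaip1, Bax, Fas, Perp, Aen, Trp53inp1 and Ei24. The peaks were chosen by position alone, as those whose midpoint lay in a window of 60 to 90 kb around each gene on build mm9, and 43 of the 92924 peaks in the deposited list met this rule. The list came from mouse embryonic stem cells of a C57BL/6X129Sv mix background, kept below passage 20 with leukemia inhibitory factor and exposed to Nutlin for 8 hours. Nutlin blocks the contact of p53 with its ubiquitin ligase Mdm2, so that p53 accumulates. Both groups were treated in the same way: 1 library was made from chromatin pulled down with the antibody M-19 against p53, and 1 was input, made without antibody. The dose of Nutlin is stated as 20 µM for the series and as 20 mM for the samples, and which unit holds could not be settled. No untreated library was analysed here, so no value below is a response to Nutlin. With 1 library per group there is no replicate check and no test between groups, and every interval covers counting error of peaks only. The list gives no read counts, so the depth is unknown.

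p53 drives apoptosis largely by raising transcription of genes whose products act at the mitochondrion or at death receptors. It binds a DNA element made of a pair of half-sites, and such elements often lie near the start or in the first intron of a target gene. Among the 8 genes, Bbc3 (which encodes PUMA) and Pmaip1 (which encodes NOXA) make BH3-only proteins that block the survival members of the BCL2 family. Bax makes the effector that permeabilises the outer mitochondrial membrane. Fas makes a death receptor on the cell surface. Perp makes a tetraspan membrane protein, Aen a nuclease, Trp53inp1 a protein that acts with p53 and in autophagy, and Ei24 a protein of the endoplasmic reticulum.

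A p53 element could be looked for only in reference promoters, since no mm9 sequence was used and the sequence under the peaks was therefore not read. RefSeq promoters on build GRCm38.p6, each running from 250 bases before to 50 bases after a gene's start, were at hand for 5 of the 8 genes (Bbc3, Bax, Fas, Aen and Ei24). The full site searched was the p53 consensus, 2 half-sites of 10 bases with no spacer, with at most 3 mismatches in 20 bases and with the C and G of both CNNG cores intact. The consensus is its own reverse complement, so both strands were covered. Bbc3 and Aen had a match, and both sites are shown because they put a p53-like element at genes whose windows held very strong peaks. Capitals mark the 20 matching bases of each, both on the plus strand, and lower case marks 5 flanking bases on each side.
Bbc3 promoter site, chr7:16309486-16309505: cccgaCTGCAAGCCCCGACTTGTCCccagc
Aen promoter site, chr7:78895937-78895956: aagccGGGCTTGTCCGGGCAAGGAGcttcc
The Bbc3 match began 97 bases before 1 of the gene's 3 listed starts. The Aen match began 121 bases before 1 of 2 listed starts and 10 bases after the other. Each had 3 mismatches, and with at most 2 allowed, 0 of the 5 genes had a match. At that setting only 0.392% of all genes had one, so 0 of 5 is near the general share. Matches with at most 3 mismatches were found in 1.38% of all 32851 promoters and for 1.63% of the 27025 genes in the table. These positions are on GRCm38.p6 and cannot be laid over the mm9 peaks. A match describes letters in a reference sequence, not a bound site.

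Bax had no match without a spacer, but it had a chain of half-sites once a spacer of up to 13 bases was allowed. Its upstream sequence is shown because the Bax window held the widest peak of all 43. The stretch runs from 250 to 11 bases before the gene's start (chr7:45466909-45467148, GRCm38.p6, minus strand, printed 5′ to 3′), and capitals mark 3 half-sites.
Bax promoter: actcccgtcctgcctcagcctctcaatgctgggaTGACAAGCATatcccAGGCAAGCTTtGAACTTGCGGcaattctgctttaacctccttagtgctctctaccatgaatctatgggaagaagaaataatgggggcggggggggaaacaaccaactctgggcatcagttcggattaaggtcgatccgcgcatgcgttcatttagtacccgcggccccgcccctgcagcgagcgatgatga
The first and the second half-site were 5 bases apart and the second and the third were 1 base apart. Each of these overlapping full sites had 2 mismatches. The search found 1 further match, with 3 mismatches and a spacer of 11 bases. It began 5 bases before the gene's start, past the end of the printed stretch. With a spacer allowed, 15.6% of all promoters had a match, so such matches are common. Fas and Ei24 had none under either search.

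All 8 windows held p53 peaks, as did most windows of the same length laid end to end along their chromosomes. Of those tiled windows, from 20.65% (chromosome 19, 90 kb) to 41.05% (chromosome 7, 60 kb) held none. At least 1 very strong peak was held by 6 of the 8 windows. The score is the value the authors' peak caller gave each peak for p53 ChIP over input. This caller writes it as −10 × log10 of its own p-value, so that a higher score stands for stronger evidence of enrichment, and the lowest in the list is 50. A score of 1000 or more, called strong here, was given to 5.77% of all peaks in the list and to 5.61% of the 27560 peaks outside the windows on the same 6 chromosomes. In the windows it was given to 11 of 43 peaks (25.6%, exact Clopper-Pearson 95% interval 13.5% to 41.2%). The windows of Bbc3, Pmaip1, Bax, Aen and Trp53inp1 held 2 strong peaks each, that of Fas held 1, and those of Perp and Ei24 held 0. Laid end to end along the same chromosomes, 11.5% of 60 kb windows held a strong peak and 1.61% held 2 or more. No test was made of this difference, because the genes were picked as known p53 targets with results of this list in view. The tiled windows also cover stretches with few genes, and the part of gene density in the difference was not tested.

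**Figure D1:**
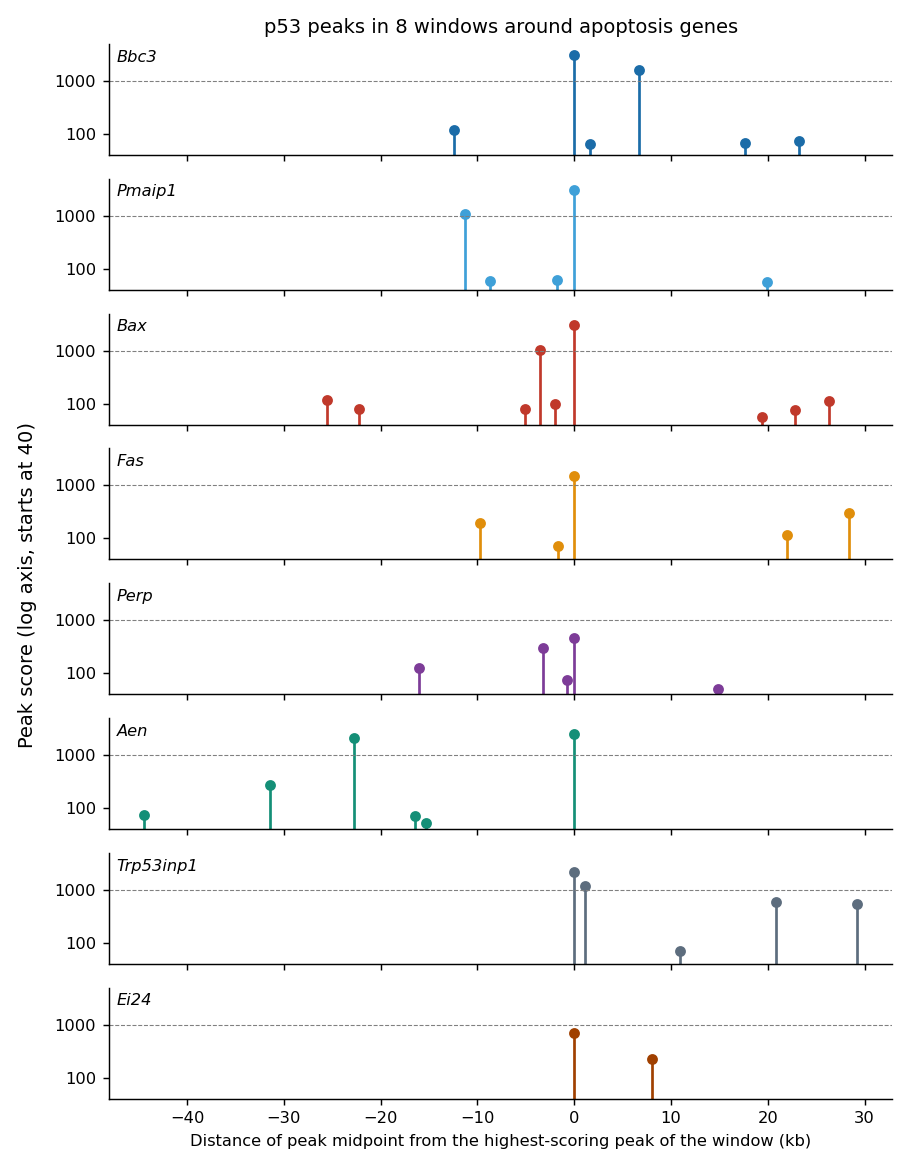
Each row is the window of 1 gene. The x axis gives the distance of each peak's midpoint from the highest-scoring peak of that window in kb, in the direction of the chromosome's coordinates, and the height of each stem gives the peak score on a log axis that starts at 40, with a dashed line at 1000. Stems above the line appear in 6 rows and come in pairs in 5 of them; Perp and Ei24 have none.

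At both BH3-only genes, 2 strong peaks stood among peaks that scored 121 or less. In the Bbc3 window, 6 peaks were found. The strongest, at chr7:16893675-16895291, had a score of 3100 and was 1617 bases wide. The second, at chr7:16900894-16901412, lay 5602 bases further on with a score of 1619 and a width of 519 bases. The other 4 scored 121, 63.7, 66.5 and 74.8 in map order. The peak of score 63.7 sat between the strong pair, 626 bases from the first. A score of exactly 3100 was shared by 1390 peaks in the list and exceeded by 116, so it places a peak in the top 1.62% without ranking it further. On chromosome 7, which also carries Bax and Aen, 11.9% of 60 kb windows held a strong peak and 1.57% held 2 or more.

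Pmaip1 had a similar layout. Its window on chromosome 18 held 5 peaks, of which the strongest, at chr18:66628672-66630073, also scored 3100 and was 1402 bases wide. The other strong peak, at chr18:66617714-66618393, scored 1085 and lay 10.3 kb before it. The remaining 3 peaks scored 57.4, 60.2 and 56.3, each close to the minimum of the list. The window therefore had no peak of intermediate score, and its median score of 60.2 was the lowest of the 8 windows. On chromosome 18, 9.6% of 60 kb windows held a strong peak and 1.1% held 2 or more.

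Bax, the mitochondrial effector, had the most peaks and the widest one. Its window held 9 peaks (exact Poisson 95% interval 4.12 to 17.1). The strongest, at chr7:52720280-52722533, scored 3100 and spanned 2254 bases, a width reached by 27 of the 1390 peaks at that score (1.94%). A second strong peak of 555 bases, at chr7:52717580-52718134, scored 1041 and ended 2145 bases before it. Between this pair lay a peak of score 96.5, and a peak of score 77.3 lay 954 bases before the weaker of the pair. The other 5 peaks scored from 54.6 to 117 and lay at least 19.4 kb from the strongest by midpoint. The strong pair and the peaks of 96.5 and 77.3 together formed a group of 4 over 6493 bases. RefSeq places Ftl1 and Dhdh on either side of Bax, and without mm9 gene positions the peaks of this window cannot be divided among these genes. The same limit holds for the other windows, whose genes also have protein-coding neighbours on both sides.

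Fas, the death receptor gene, had a single strong peak. Of 5 peaks in its 90 kb window on chromosome 19, the strongest lay at chr19:34366391-34367537 with a score of 1539 and a width of 1147 bases. A peak of score 70.3 ended 847 bases before it. The others scored 199, 118 and 307. The nearest other strong peak lay 172 kb away, outside the window, and 19.4% of 90 kb windows of this chromosome held a strong peak. The scores of 199, 118 and 307 lay above the median of the rest of chromosome 19 (87.6), and the peak of 70.3 lay below it.

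Perp was the one window with weak or intermediate peaks only and a strong peak just past its edge. Its 5 peaks scored 125, 304, 74.3, 472 and 51.1 in map order. The highest, at chr10:18567592-18568122, had a score that 516 of the 4678 peaks of chromosome 10 exceeded. On this chromosome, 11.0% of 60 kb windows held a strong peak. It lay 196 bases from the peak of 74.3, and the broadest peak of the window (1119 bases, score 304) lay 3.18 kb from it by midpoint. The next peak beyond the window, at chr10:18603814-18604655, had a score of 3076 with its midpoint 4.23 kb past the window's end. The absence of a strong peak in the Perp window therefore depends on where the window stops.

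In Aen, the nuclease gene, the strong peaks were nearly equal and far apart. Of 6 peaks, the strongest lay at chr7:86063263-86064542 with a score of 2528 and a width of 1280 bases. The other, at chr7:86040495-86041721, scored 2144 and was 1227 bases wide. They were 21.5 kb apart, the longest distance between the strong peaks of any of the 5 windows with a pair, with peaks of score 70.5 and 51.2 between them. The remaining peaks scored 74.8 and 271. RefSeq lists Det1 and Isg20 as the protein-coding genes before and after Aen, and which gene each strong peak lies nearest to was not determined.

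Trp53inp1 had the closest pair and the highest median score of the 8 windows. At chr4:11081941-11082679 a peak of 739 bases scored 2232, and 203 bases further a peak of 1111 bases at chr4:11082883-11083993 scored 1194. Another 2 of its 5 peaks scored 596 and 535, at 20.9 and 29.2 kb from the strongest by midpoint, and 1 scored 68.8. The median score was 596, against 86.4 in the rest of chromosome 4, where 10.7% of 60 kb windows held a strong peak and 1.89% held 2 or more. The strongest peak of the window was narrower than its neighbour, which was also the case at Perp. In the other 6 windows the highest-scoring peak was also the widest. Width rose with score outside the windows too, with medians of 449, 626 and 849 bases for scores under 100, from 100 to under 1000, and of 1000 or more. How many tiled windows share this trait was not counted.

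Ei24 had the fewest peaks, and neither scored under 100. The first, at chr9:36604240-36605261, scored 707 and was 1022 bases wide, and the second, at chr9:36612442-36613084, scored 230 and was 643 bases wide. A score of 707 was reached by 7.62% of the peaks of chromosome 9, where 14.9% of 70 kb windows held a strong peak. To the left, the next peak had its midpoint 268.5 kb from the window's edge (score 71.3), so Ei24 stood at the end of a long stretch without peaks. Ei24 was the one window with 0 peaks under 100, a class that made up 57.5% of the peaks outside the windows on the 6 chromosomes.

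Peaks were denser in 7 of the 8 windows than in the rest of their chromosome. The density was 150.0 per Mb at Bax and 100.0 per Mb at both Bbc3 and Aen, against 39.5 per Mb in the rest of chromosome 7. It was 83.3 per Mb at Pmaip1 against 32.2, at Perp against 36.8 and at Trp53inp1 against 41.6 per Mb. At Fas it was 55.6 against 45.2 per Mb, and at Ei24 it was lower, 28.6 against 43.0 per Mb. These counts are small, and the exact Poisson 95% interval lay wholly above the chromosome's value only for Bax (68.6 to 285 per Mb). At Bbc3 and Aen it ran from 36.7 to 218 per Mb. The interval treats peaks as independent, which close neighbours are not.

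Set beside windows of the same length tiled along the chromosome, the peak numbers lay above the median in 7 windows and at it for Ei24. At least 9 peaks, the number at Bax, were held by 6.28% of the 2485 tiled windows of chromosome 7, and at least 6, the number at Bbc3 and Aen, by 15.1%. At least 5 peaks were held by 14.3% of windows at Pmaip1's chromosome, 14.7% at Perp's, 20.2% at Trp53inp1's and, at the 90 kb length of Fas, 35.1%. For Ei24, 56.2% of 70 kb windows of chromosome 9 held 2 or more. Over the 6 chromosomes, 34.9% of 60 kb windows lay above the mean density of their chromosome. The density of 7 of 8 windows above their chromosome stood beside this share, and 6 of 8 windows with a strong peak beside 11.5%; neither difference was tested.

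**Figure D2:**
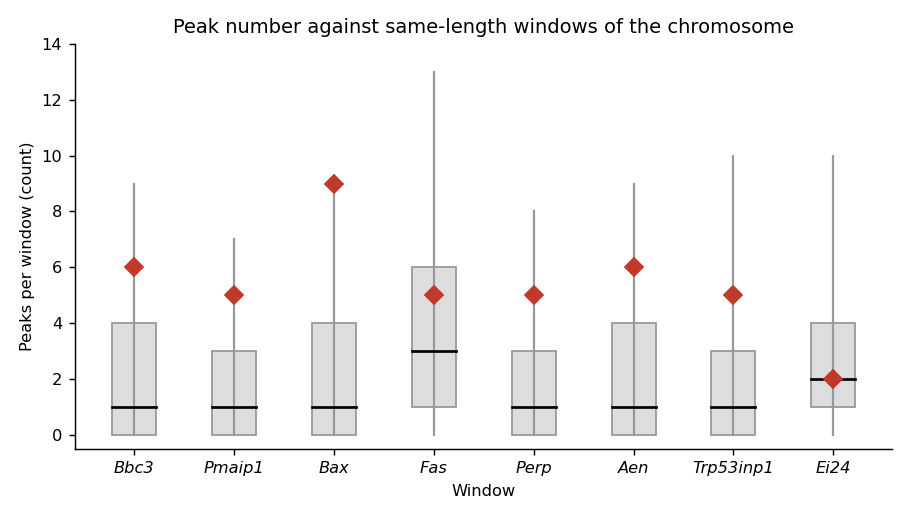
The y axis gives the number of peaks per window for the 8 genes on the x axis. Red diamonds are the gene windows; boxes, black lines and whiskers give the quartiles, the median and the 5th to 95th percentiles of windows of the same length on the same chromosome. The diamonds run from 2 at Ei24 to 9 at Bax, and the medians of the tiled windows from 1 to 3.

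The share of strong peaks was higher in the windows than outside, and the share of peaks under 100 was lower. The median was 121 (95% interval from order statistics 76.1 to 472, 43 peaks), an interval that included the 86.6 (85.8 to 87.6) outside the windows on the same chromosomes. Scores under 100 made up 41.9% of the peaks in the windows (18 of 43, exact 95% interval 27.0% to 57.9%) and 57.5% outside. The intermediate class from 100 to under 1000 held 32.6% (14 of 43, 19.1% to 48.5%) against 36.9%. The intervals of both shares included the value outside, and that of the strong class (13.5% to 41.2%) did not include 5.61%. These intervals treat peaks as independent, but 5 windows held 2 strong peaks each. The genes were also picked as known p53 targets with results of this list in view, so the intervals are no test. A score of 3100 or more was given to 3 of 43 peaks (6.98%, 1.46% to 19.1%), an interval that included the 1.62% outside. These 3 were 1 each at Bbc3, Pmaip1 and Bax.

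**Figure D3:**
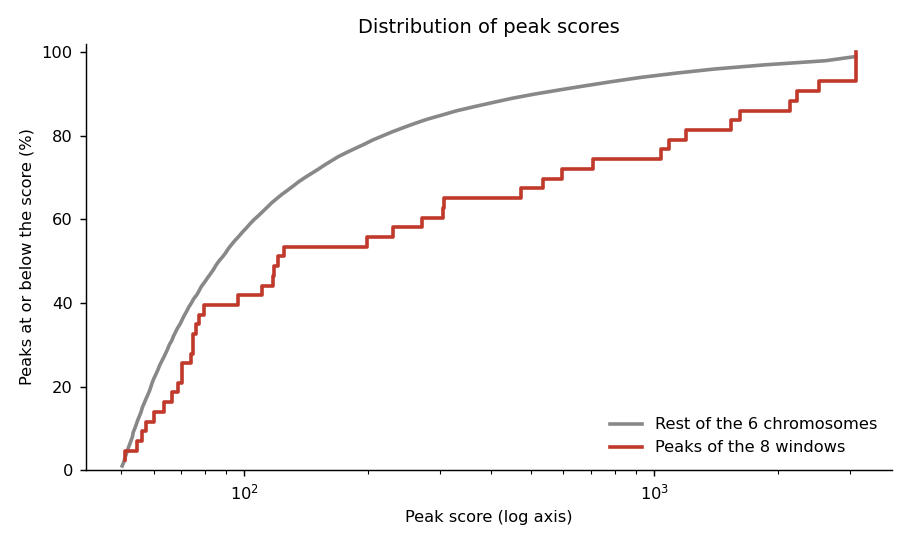
Cumulative share of peaks in % (y axis) at or below a given score (x axis, log scale) for the 43 peaks of the windows (red) and the 27560 peaks outside them on the 6 chromosomes (grey). The red curve lies below the grey one at all but the lowest scores: 74.4% of the window peaks and 94.4% of the others score under 1000.

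Strong peaks in the windows varied widely in width. The 11 strong peaks had a median width of 1147 bases (95% interval 555 to 1617) against 849 (831 to 864) for the 1545 strong peaks outside, so the interval included the outside value. The second Bbc3 peak (519 bases) and the second Bax peak (555 bases) were narrower than 94.2% and 91.7% of the outside strong peaks. The Bax peak of 2254 bases was at the other end, with 1.29% of outside strong peaks as wide. Weak peaks had a median width of 462 bases (394 to 576) in the windows and 449 outside, and intermediate peaks 646 (493 to 998) and 626 bases. Since 1 peak caller set both width and score, how they relate is given as a description.

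**Figure D4:**
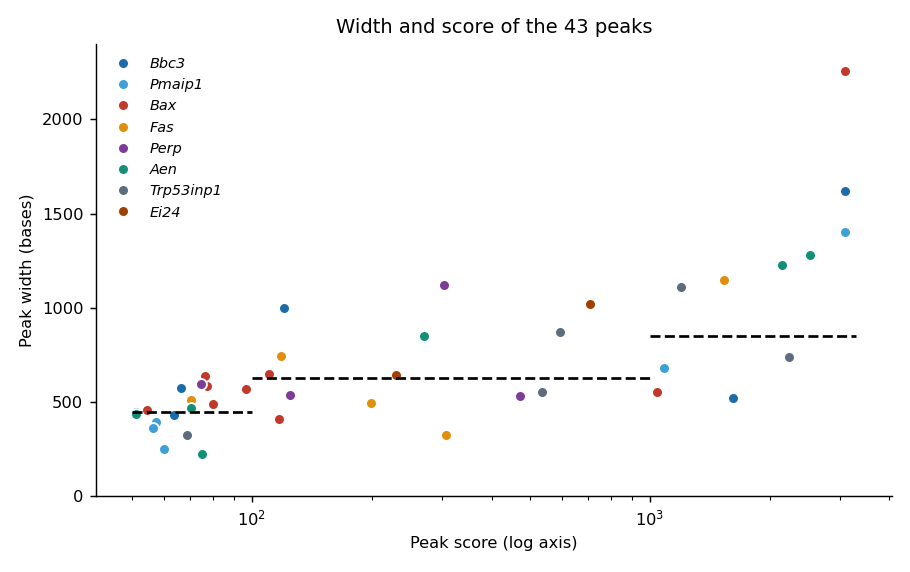
Width in bases (y axis) against score (x axis, log scale) of the 43 peaks, coloured by window. Dashed lines give the median width of peaks outside the windows in 3 score classes (449, 626 and 849 bases). The 3 peaks at a score of 3100 are the widest points, from 1402 to 2254 bases, while 4 of the other strong peaks lie below the dashed line of their class.

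For neighbouring peaks inside a window, the interval of the median gap included the pooled median gap of tiled windows. The median gap from the end of a peak to the start of the next was 5879 bases (95% interval 2832 to 9091, 35 gaps). It was 4923 bases (4793 to 5021, 20013 gaps) for neighbours sharing a tiled 60 kb window on the same chromosomes. The tiled gaps were pooled, so windows with many peaks supply more of them and windows without neighbouring peaks supply none. The windows of Fas (90 kb) and Ei24 (70 kb) are also longer than the tiled ones. Of the 35 gaps, 8 were under 1 kb (22.9%, exact 95% interval 10.4% to 40.1%), an interval that included the 13.4% of gaps outside the windows on the 6 chromosomes. The 13.4% is not a like measure, since it also counts gaps too long to fit in a window. The shortest gaps inside the 8 windows were 196 bases at Perp and 203 bases at Trp53inp1.

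In 5 windows the strong peaks came as a pair. The 11 strong peaks gave 6 different distances to the nearest other strong peak, since the peaks of a pair share 1. Their median was 7.94 kb, and with 6 values the 95% interval (0.203 to 172 kb) merely runs from the lowest to the highest. The median for the 1545 strong peaks outside was 82.1 kb (74.5 to 88.0 kb), with a shared distance counted for each peak. Counted that way, the 11 strong peaks had a median of 5.60 kb (0.203 to 21.5 kb). That interval treats the peaks of a pair as independent, and the difference was not tested. A pair inside a window cannot be further apart than the window is long. Gaps within the pairs were 203 bases at Trp53inp1, 2145 at Bax, 5602 at Bbc3, 10278 at Pmaip1 and 21541 at Aen. Any other peak, of whatever score, lay within 10 kb of 10 of the 11 strong peaks (90.9%, exact 95% interval 58.7% to 99.8%), an interval that included the 73.0% of those outside. The exception was the strongest Aen peak, whose nearest neighbour was 14424 bases away.

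Of the 16 peaks that flanked the 8 windows, 10 scored under 100, a class that held 57.5% of the peaks outside the windows. A score of 1000 or more was given to 1 of the 16, the peak of 3076 beside Perp, against 5.61% outside. The next highest was a peak of 965 at chr7:52687932-52688628, with its midpoint 1.72 kb before the Bax window, and then a peak of 451 with its midpoint 1.05 kb past the Bbc3 window. Just inside the windows, the outermost peaks (left, then right) scored 121 and 74.8 at Bbc3, 1085 and 56.3 at Pmaip1, and 117 and 111 at Bax. They scored 199 and 307 at Fas, 125 and 51.1 at Perp, and 74.8 and 2528 at Aen. At Trp53inp1 they scored 2232 and 535, and the peaks of 707 and 230 at Ei24 were both outermost. A strong peak was thus the outermost one on 1 side of 3 windows, those of Pmaip1, Aen and Trp53inp1.

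Other genes of the apoptosis pathway could be described only through their reference promoters. Among 18 further p53-linked apoptosis genes with a promoter in the table, 1 had a full site without spacer, Tigar, a regulator of glycolysis. The share among all genes was 1.63%. None was found for the 6 survival genes of the BCL2 family (0 of 6), the 6 genes of the extrinsic pathway (0 of 6) or the 7 caspase-activation and executioner genes (0 of 7). With a spacer of up to 13 bases the counts were 4 of 18, 1 of 6 (Bcl2l1, a survival gene), 2 of 6 (Fasl, the ligand of Fas, and the kinase gene Ripk1) and 0 of 7, against 17.4% of all genes. Apaf1 and Casp8 are each in 2 of these lists. A window without these letters says nothing about p53 binding elsewhere at the gene.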

How the data were processed

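p53 ChIP and input chromatin of Nutlin-treated mouse embryonic stem cells were sequenced as 1 library each, assigned by their titles. The deposited file lists peaks with chromosome, start, end, name and a score per peak; build mm9, MACS 1.4.1 and CASAVA 1.8.2 are named in the submitters' processing notes. Not given in the sources used here were the aligner, the peak caller's settings and the read totals. The score was deposited by the authors as their peak caller wrote it and grows with depth as well as enrichment; scores were therefore compared within the list alone. Starts, deposited counted from 0, are printed counted from 1.

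The 8 genes, their windows and all lists were chosen with earlier results of these data known. The windows were not checked against an mm9 annotation, which was not used here. The named items were the 8 genes, the highest peak of each window, its neighbours and every peak of score 1000 or more. Densities used the distance from first to last peak of a chromosome, less the windows. Tiled windows lay end to end from the first peak and did not touch the 8 windows. Median intervals are order-statistic 95% intervals and share intervals are exact Clopper-Pearson. The functions were tested on simulated lists. Python 3.11.15, NumPy 2.4.6, pandas 2.3.3, SciPy 1.17.1 and Matplotlib 3.10.9 were used. Alternatives were a score minimum of 100, merging of peaks up to 1 kb apart, overlap in place of midpoint, windows shortened by 10 kb or extended by 20 kb on both sides, leaving out the window with the most peaks, and 2 other motif settings; a tiling moved to another start was added after seeing the data.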

Additional observations from a re-analysis of the deposited data

How the results depend on the processing

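A score minimum of 100 left 25 of the 43 peaks, with a median width of 746 bases in place of 576 and a median score of 596 in place of 121, as follows from removing the weak peaks; all 8 windows then exceeded the density of their chromosome, Ei24 included (28.6 against 17.6 per Mb). Allowing 2 mismatches in place of 3 left 0 of 5 genes with a full site in a promoter, against 0.392% of all genes. With 3 mismatches 2 had one, against 1.63% of all genes, and a spacer gave 3, against 17.4%. With windows extended by 20 kb on both sides, 7 of 8 held a strong peak, Perp now among them with 3076. In the same setting 6 of 8 exceeded the density of their chromosome, since Fas fell to 38.5 against 45.2 per Mb. Longer windows have more room for a strong peak, and the share of tiled windows of the extended length was not counted. The share of tiled windows above the density with the score minimum of 100 was not counted either. Under the settings other than the score minimum, the number of peaks ranged from 34 without the Bax window or with shortened windows to 57 with extended ones. The median score of 121 moved to 230 with merging and to 215 both with shortened windows and without Bax, within its wide interval (76.1 to 472). Overlap in place of midpoint changed none of the 6 values. No paired analysis was possible because there is a single ChIP and a single input library, and for the same reason no library could be left out. With the read depth unknown, weak peaks cannot be told from noise by their number of reads.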
